A study of Mus musculus with 6 samples.

Results

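Cytochrome P450 genes encode haem enzymes that insert an oxygen atom into fatty acids, sterols, vitamins and foreign compounds. They were taken as all rows of the gene tables whose symbol is Cyp followed by a family number, lower-case subfamily letters and a gene number. Cyp24a1, Cyp27b1, Cyp4a10 and Cyp4a14 were left out by the same rule, as were symbols that end in a letter. This gave 88 genes of 23699 rows, and 51 of the 88 had enough signal for the test. RNA was sequenced from the duodenum of 6-week-old mice on a mixed strain background, 3 controls and 3 mutants, with 1 mouse per library. The controls carried Nkx2.2flox/+ with no Cre, and controls 1 and 2 also carried Rosa26Tomato/+, a reporter allele that control 3 lacked. The mutants, named TNint, were Nkx2.2flox/TN; Villin-Cre/+; Rosa26Tomato/+. Nkx2.2 is a transcription factor that directs enteroendocrine cell fate, TN is known as a mutation of its tinman domain, and Villin-Cre acts in intestinal epithelium. The groups therefore differed in Cre, in the TN allele of every tissue and in how many Nkx2.2 copies the epithelium keeps. They also differed in the reporter allele, which every mutant carried and control 3 lacked. These differences cannot be told apart. Each library came from 2 cm of the whole wall next to the stomach. In such bulk tissue fewer cells of a type and less RNA per cell cannot be told apart. The labels give replicate numbers but no litter, sex or sequencing lane, so p-values measure the spread between these 6 samples.

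Most P450 enzymes sit in the endoplasmic reticulum and receive electrons from P450 oxidoreductase, with cytochrome b5 as a helper, while a few lie in mitochondria and use adrenodoxin. In the small intestine, enterocytes are the main site of P450s, which oxidise drugs and dietary compounds before they reach the liver. Epoxygenases and omega-hydroxylases of the same superfamily act on arachidonic acid and other fatty acids. Many P450 genes are switched on by ligand-activated receptors: Ahr for Cyp1a1, the constitutive androstane receptor Nr1i3 for Cyp2b10 and the pregnane X receptor Nr1i2 for Cyp3a11.

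The libraries had the markers of proximal small intestine. Implied read depth ran from 14.21 to 25.91 M (megareads). The enterocyte gene Fabp1 lay between 3863 and 7381 FPKM (fragments scaled by transcript length and library size), and the ileal gene Fabp6 between 0 and 1.30 FPKM. Of 9 hepatocyte markers, 2 were at 0 FPKM in all 6 libraries, Fga and Fgb, and Alb did not pass 0.207 FPKM. Ttr, at 2.22 to 3.57 FPKM, made up most of the list's sum of 2.68 to 4.27 FPKM. Pancreatic acinar genes were present in unequal amounts, with a summed level over 9 genes of 221, 541 and 7821 FPKM in controls and 2297, 2318 and 9081 FPKM in mutants. Xist was at 34.0 FPKM in control 3 and 23.2 FPKM in mutant 3 and at 0.0642 FPKM or less in the other libraries, and the 4 Y-linked genes listed showed the opposite pattern. Control 3 and mutant 3 thus stood apart from the other 4 libraries. The test of mutant against control is also given without them. Group means, sums and spreads were not recomputed without them.

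P450 expression in control duodenum was concentrated in few genes. Of the 88 genes, 38 had a control mean of at least 1 FPKM, 21 of at least 10 FPKM and 7 of at least 100 FPKM. The first 10 genes held 84.3% of the summed control level, and Cyp3a11 alone held 22.4%. At the other end, 37 genes were below the mean of 0.1 FPKM needed for the test. Of those, 28 had a value above 0 in some library, none over 0.216 FPKM, and 9 were listed at 0 in all 6 libraries: Cyp2a4, Cyp2a22, Cyp2b9, Cyp2c37, Cyp2c50, Cyp2c54, Cyp2g1, Cyp7a1 and Cyp19a1. Cyp7a1, the rate-limiting enzyme of bile acid synthesis, and Cyp2c37, Cyp2c50 and Cyp2c54 are best known from the liver.

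**Figure D1:**
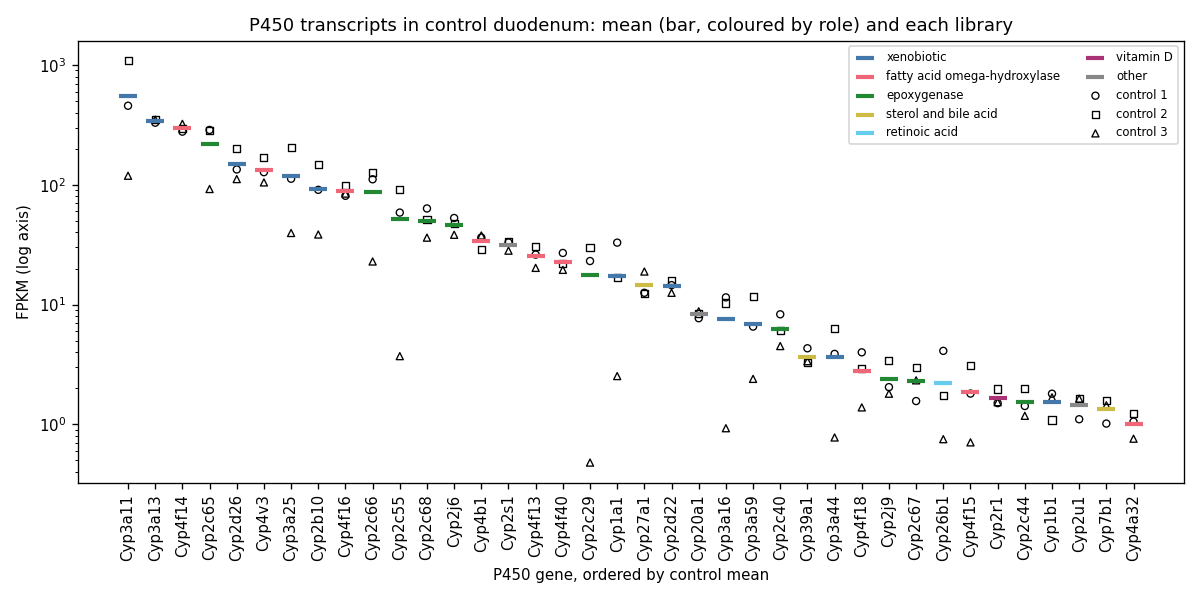
Control duodenal level of the 38 P450 genes with a control mean of at least 1 FPKM, on a log axis, ordered by mean (bars, coloured by role) with each control library as a symbol. Control 3 (triangles) lies far below the other controls for Cyp2c29, Cyp2c55, Cyp3a16 and Cyp1a1, and close to them for Cyp3a13 and Cyp4f14.

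By subfamily, the 7 Cyp3a genes held 41.8% of the summed control level, the 8 Cyp4f genes 17.8%, the 15 Cyp2c genes 17.8%, the 9 Cyp2d genes 6.63%, Cyp4v3 5.42%, the 5 Cyp2b genes 3.72% and the 7 Cyp2j genes 1.98%. The Cyp3a sum was 1034 ± 587 FPKM, the Cyp4f sum 440 ± 18.9 FPKM and the Cyp2c sum 439 ± 239 FPKM (SD, n = 3 controls each). The Cyp4f and Cyp2c subfamilies were thus level in the mean while their spread among controls differed widely. Most of the Cyp4f sum came from Cyp4f14, at a control mean of 298 FPKM. The row of Cyp4f14 carries a failed-estimate status in all 6 libraries, which bears on the Cyp4f and omega-hydroxylase sums. Grouped by role, the xenobiotic subfamilies (31 genes) summed to 1310 ± 693 FPKM, the fatty acid omega-hydroxylases (13 genes) to 610 ± 37.5 FPKM and the epoxygenases (22 genes) to 488 ± 246 FPKM. Sterol and bile acid enzymes (6 genes) summed to 19.7 FPKM, retinoic acid enzymes (3 genes) to 2.26 FPKM, and steroid hormone enzymes (6 genes) to 0.273 FPKM. The subfamily decides the role here, and several Cyp2c and Cyp4 enzymes also oxidise foreign compounds.

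**Figure D2:**
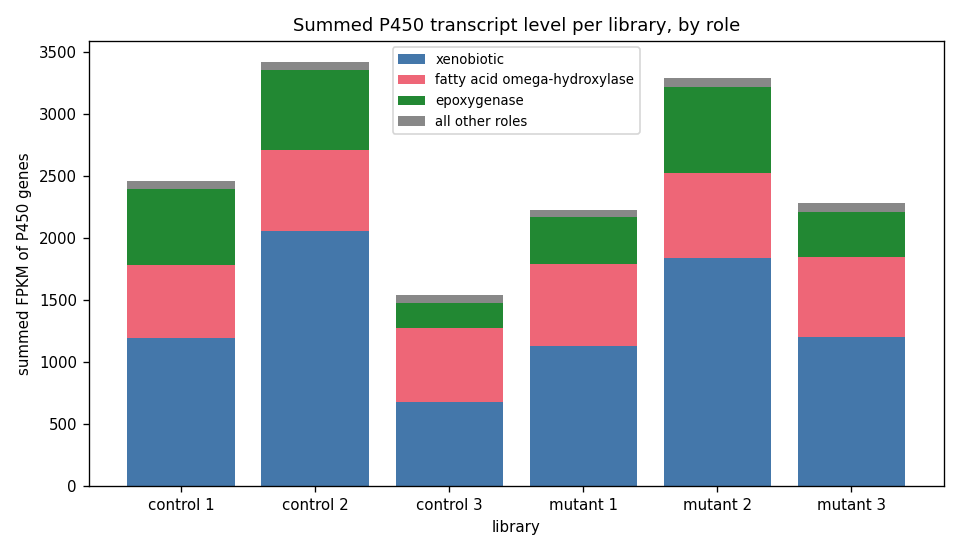
Summed FPKM of the 88 P450 genes in each library, stacked by role. The omega-hydroxylase share is of near equal height in all 6 libraries, between 584 and 685 FPKM, while the xenobiotic and epoxygenase parts are lowest in control 3 and highest in control 2 or mutant 2.

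All 88 genes together summed to 2458, 3419 and 1544 FPKM in controls 1, 2 and 3 and to 2227, 3292 and 2283 FPKM in mutants 1, 2 and 3. Control 3 was the lowest of the 6, and the groups overlapped. The sum was 0.393%, 0.535% and 0.223% of all FPKM in the controls and 0.333%, 0.512% and 0.320% in the mutants. Omega-hydroxylases varied little, at 584, 653 and 593 FPKM in controls and 657, 685 and 643 FPKM in mutants. Epoxygenases ran from 205 FPKM in control 3 to 696 FPKM in mutant 2. Xenobiotic enzymes ran from 680 FPKM in control 3 to 2053 FPKM in control 2.

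Genes above and below a control mean of 1 FPKM lay in the same P450 gene clusters. Clusters are given on mm9, with gaps of up to 500000 bases between neighbours. The Cyp2c cluster (chr19:39081509-40261776) held 14 genes, of which 7 had a control mean of at least 1 FPKM and 3 were at 0. The Cyp3a cluster (chr5:146106139-146924859) held 6 genes, 5 of them at 1 FPKM or more, while Cyp3a13 stood alone on the same chromosome (chr5:138334161-138362847). The Cyp4f cluster (chr17:32589668-33084306) had 5 of 7 genes at that level, the Cyp2d cluster (chr15:82200957-82624675) 2 of 9, and the Cyp2j cluster (chr4:95709351-96330810) 2 of 7. The cluster of Cyp2a, Cyp2b, Cyp2s and related genes (chr7:26587495-27943583) had 2 of 13, namely Cyp2b10 and Cyp2s1.

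The 5 genes with the largest spread over the 6 libraries, measured as the SD of log2(FPKM + 0.1) among P450 genes with a mean of at least 1 FPKM, were Cyp2c29, Cyp2c55, Cyp3a16, Cyp1a1 and Cyp3a11, in that order. Their promoters are shown because control 3 was the lowest of the 6 libraries for each of these genes, although they differed in order among the mutants. The promoter of Cyp3a13, which was even among controls, is shown for comparison. Each line gives the 250 bases before the start site on GRCm38.p6, from RefSeq, written 5′ to 3′ on the gene's strand: Cyp2c29 (chr19:39286835-39287084, plus), Cyp2c55 (chr19:39006769-39007018, plus), Cyp3a16 (chr5:145469724-145469973, minus), Cyp1a1 (chr9:57697363-57697612, plus), Cyp3a11 (chr5:145879855-145880104, minus) and Cyp3a13 (chr5:137921620-137921869, minus). Capitals mark matches, on either strand, to AGGTCA (a nuclear receptor core site), GCGTG (the core bound by Ahr with Arnt), TATAAA (the TATA box) and GTTAAT (part of the site of hepatocyte nuclear factor 1).
Cyp2c29: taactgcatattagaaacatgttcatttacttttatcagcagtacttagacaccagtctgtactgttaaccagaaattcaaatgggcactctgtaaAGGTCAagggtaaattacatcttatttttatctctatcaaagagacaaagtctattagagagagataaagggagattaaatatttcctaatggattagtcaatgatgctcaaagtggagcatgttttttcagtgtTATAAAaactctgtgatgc
Cyp2c55: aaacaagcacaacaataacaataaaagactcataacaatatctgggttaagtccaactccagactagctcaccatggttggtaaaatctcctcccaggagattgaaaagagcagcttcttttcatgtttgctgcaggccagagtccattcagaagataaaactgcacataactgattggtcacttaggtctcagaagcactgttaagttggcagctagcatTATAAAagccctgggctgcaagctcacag
Cyp3a16: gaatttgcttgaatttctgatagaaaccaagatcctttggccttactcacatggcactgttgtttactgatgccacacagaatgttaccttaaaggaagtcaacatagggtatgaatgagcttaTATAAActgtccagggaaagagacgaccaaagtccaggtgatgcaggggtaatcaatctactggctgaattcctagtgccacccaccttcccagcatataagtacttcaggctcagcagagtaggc
Cyp1a1: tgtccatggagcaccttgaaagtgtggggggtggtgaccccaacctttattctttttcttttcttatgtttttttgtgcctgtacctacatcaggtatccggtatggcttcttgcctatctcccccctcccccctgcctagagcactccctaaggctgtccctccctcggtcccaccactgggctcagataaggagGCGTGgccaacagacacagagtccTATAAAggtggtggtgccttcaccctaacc
Cyp3a11: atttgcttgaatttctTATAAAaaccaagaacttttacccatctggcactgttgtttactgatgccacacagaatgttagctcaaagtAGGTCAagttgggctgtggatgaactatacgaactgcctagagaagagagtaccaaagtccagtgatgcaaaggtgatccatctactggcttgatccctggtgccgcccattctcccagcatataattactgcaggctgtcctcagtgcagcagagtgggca
Cyp3a13: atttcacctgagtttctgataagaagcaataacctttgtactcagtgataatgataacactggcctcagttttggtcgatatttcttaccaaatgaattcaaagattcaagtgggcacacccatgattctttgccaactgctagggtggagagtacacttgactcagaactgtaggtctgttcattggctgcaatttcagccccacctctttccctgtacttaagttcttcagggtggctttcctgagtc

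In these windows TATAAA starts 30 bases before the start site in Cyp1a1, 29 bases before it in Cyp2c55 and 19 bases before it in Cyp2c29. The TATAAA marked in Cyp3a16 and Cyp3a11 lies much further away, 126 and 234 bases before the start site. Cyp1a1 has a GCGTG 54 bases before the start site, and AGGTCA lies 154 bases before it in Cyp2c29 and 162 bases before it in Cyp3a11. The Cyp3a13 window holds none of the 4 motifs, and neither does that of Cyp4b1 (not shown). Cyp4f14, also even among controls at 278, 294 and 323 FPKM, has a GCGTG on the opposite strand (window not shown). It lies 237 bases before the start site. Whether these motifs go with the spread between libraries was not tested. Over the 70 P450 genes with a promoter in the table, TATAAA was found in 37.1% against 13.0% of all 27025 promoters, AGGTCA in 22.9% against 13.8%, GTTAAT in 11.4% against 6.52% and GCGTG in 21.4% against 28.2%. Of the 33 among these 70 with a control mean of at least 1 FPKM, 12 had TATAAA, 5 AGGTCA, 5 GTTAAT and 9 GCGTG. A match is only a run of letters, and genes of a cluster share ancestry, so the members are not independent.

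Cyp3a11, the main mouse counterpart of human CYP3A4, was the highest P450 gene on average and among the least steady. Its level was 457, 1086 and 119 FPKM in controls and 354, 604 and 271 FPKM in mutants. The controls alone differed 9.13-fold from lowest to highest, and the mutant values lay inside that range. The log2 fold change of mutant over control was −0.01 (SE 0.76). Fold changes here and below are on the scale of log2(FPKM + 0.1), mutant minus control. Cyp3a25, a CYP3A enzyme of liver and small intestine, had the same shape, with 112, 205 and 39.6 FPKM in controls and 62.9, 172 and 82.2 FPKM in mutants. Control 3 was again the lowest and control 2 the highest of the 6 libraries.

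Cyp3a13, a CYP3A enzyme abundant in gut, behaved otherwise. It was measured at 330, 351 and 350 FPKM in controls, a 1.06-fold range, and it was the highest P450 gene in control 3 and in all 3 mutants. Cyp3a16, known from fetal mouse liver, was at 11.5, 10.3 and 0.929 FPKM in controls and 6.52, 3.24 and 2.08 FPKM in mutants. Both libraries numbered 3 were the lowest of their group for Cyp3a16.

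The other xenobiotic enzymes named by level or spread were Cyp2d26, Cyp2b10 and Cyp1a1. Cyp2d26, of the CYP2D subfamily, was at 134, 200 and 112 FPKM in controls and 195, 218 and 144 FPKM in mutants. Cyp2b10, the classical target of Nr1i3, was at 90.8, 146 and 38.5 FPKM in controls and 116, 169 and 100 FPKM in mutants. Cyp1a1, the classical target of Ahr that oxidises polycyclic aromatic hydrocarbons, was at 32.9, 16.9 and 2.53 FPKM in controls and 18, 20.6 and 6.21 FPKM in mutants. For all 3 genes the groups overlapped, control 3 was the lowest library and mutant 3 the lowest mutant.

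Among epoxygenases, Cyp2c65, an arachidonic acid epoxygenase of the gut, led with 287, 284 and 92.2 FPKM in controls and 177, 330 and 191 FPKM in mutants. Its neighbour Cyp2c66 was at 111, 127 and 22.9 FPKM in controls and 61.1, 116 and 48.7 FPKM in mutants. Control 3 was the lowest library for both genes, by a wide margin for Cyp2c66. Cyp2c55, which hydroxylates arachidonic acid, was at 58.6, 92.2 and 3.71 FPKM in controls and 19.9, 76.3 and 22.7 FPKM in mutants. Cyp2c29, an epoxygenase inducible by phenobarbital in liver, was at 23.1, 29.8 and 0.480 FPKM in controls and 14.1, 41.2 and 2.53 FPKM in mutants. Cyp2c29 was the most uneven gene, with a 62.2-fold range among controls and both libraries numbered 3 far below the others. Cyp2c68 and Cyp2j6 were steadier: Cyp2c68 ran from 36.2 to 64.0 FPKM over the 6 libraries. Cyp2j6, an epoxygenase of the gut, ran from 34.3 to 52.8 FPKM.

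The summed level of the omega-hydroxylases was even, carried by a few abundant genes. Cyp4f14, which inactivates leukotriene B4, was at 278, 294 and 323 FPKM in controls and 348, 309 and 343 FPKM in mutants. Its gene row carries a failed-estimate status in all 6 libraries, and its value equals the sum of 5 deposited transcripts. Cyp4v3, the counterpart of the fatty acid hydroxylase CYP4V2 of human eye disease, was at 127, 170 and 105 FPKM in controls and 123, 181 and 129 FPKM in mutants. Cyp4f16 stayed between 77.3 and 99.3 FPKM in all 6 libraries. Cyp4b1, which oxidises short fatty acids and some plant toxins, was at 36.3, 28.7 and 37.7 FPKM in controls and 47.0, 50.8 and 41.0 FPKM in mutants, and each mutant lay above each control. Cyp2s1, a dioxin-inducible enzyme of epithelia placed outside these roles, lay between 27.9 and 35.8 FPKM.

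Sterol and bile acid, retinoic acid, vitamin D and steroid hormone enzymes were low next to the roles above. Cyp27a1, the mitochondrial sterol hydroxylase of bile acid synthesis, was at 12.5, 12.5 and 18.9 FPKM in controls and 10.4, 16.8 and 25.7 FPKM in mutants, so the libraries numbered 3 were the highest of their groups. Cyp26b1, which degrades retinoic acid, was at 4.11, 1.73 and 0.753 FPKM in controls and 3.6, 4.10 and 1.41 FPKM in mutants. Cyp2r1, which makes calcidiol from vitamin D, was at 1.5, 1.97 and 1.53 FPKM in controls and 1.35, 1.40 and 1.10 FPKM in mutants, with every mutant below every control. Cyp17a1, of sex steroid synthesis, led the steroid hormone enzymes with a control mean of 0.0973 FPKM, below the filter.

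P450 genes varied more between libraries than genes in general. The median SD of log2(FPKM + 0.1) over the 6 libraries was 0.42 for the 40 P450 genes with a mean of at least 1 FPKM and 0.15 for all 12570 such rows. Within controls alone the medians were 0.42 and 0.13, and within mutants 0.37 and 0.13. An SD above 1 was reached by 7 of the 40 genes and by 1.42% of all such rows, and an SD above 0.5 by 17 of the 40 and by 4.73%. By role, over all tested members, the median SD was 0.76 for 17 xenobiotic enzymes, 0.47 for 13 epoxygenases, 0.30 for 12 omega-hydroxylases, 0.28 for 3 sterol and bile acid enzymes and 0.24 for 4 others. It was 0.95 for Cyp26b1 and 0.26 for Cyp2r1, each the 1 tested gene of its role. Omega-hydroxylases were not all even, since the low gene Cyp4f15 had an SD of 1.04.

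**Figure D3:**
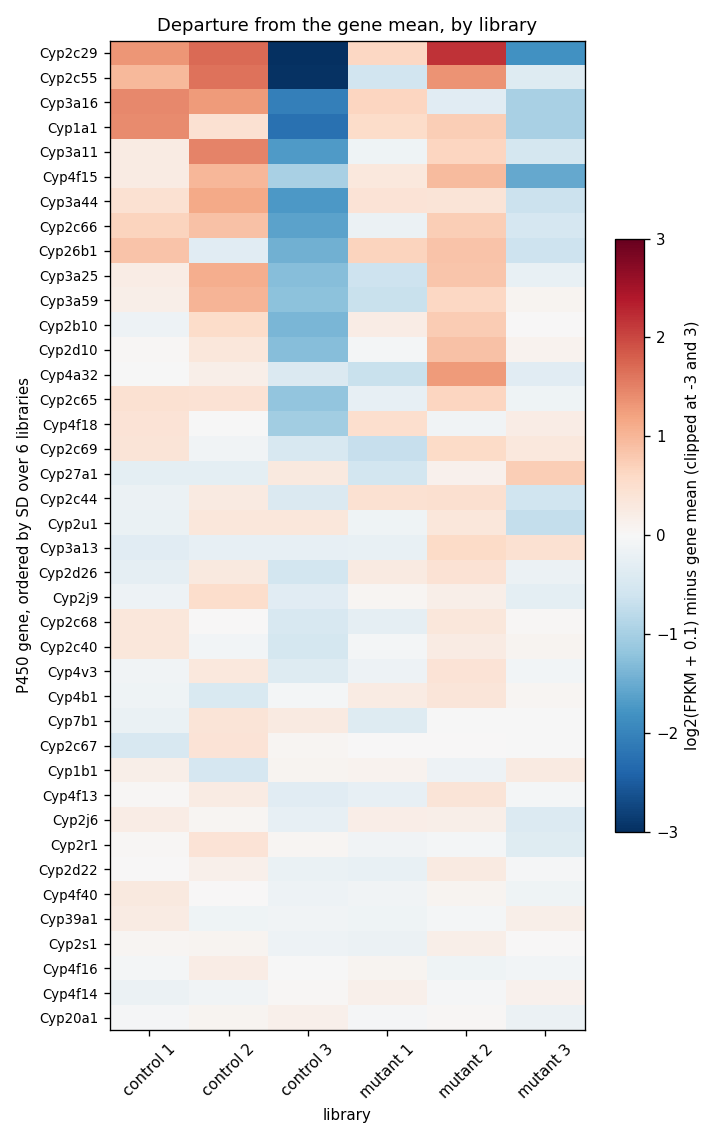
Departure of log2(FPKM + 0.1) from each gene's mean over the 6 libraries, for the 40 P450 genes with a mean of at least 1 FPKM, ordered by SD from top to bottom and clipped at 3 in either direction. The upper rows are blue in control 3 and mostly a paler blue in mutant 3, and mostly red in control 2 and mutant 2, while the lower rows are pale in every library.

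Control 3 stood lowest most often. It was the lowest control for 28 of the 40 genes, against 49.2% of all rows at that level, while among mutants the lowest library was mutant 3 for 19 genes, against 41.2%, and mutant 1 for 17, against 30.5%. Both were lowest in 14 of the 40 genes, against 26.7% of rows. Control 3 was below 1/2 of the level of the other controls for 15 of the 40 genes, against 1.12% of rows. Mutant 3 was below 1/2 of the other mutants for 7 of the 40, against 1.11%. Relative to the mean of the other 2 controls, control 3 differed by −5.51 on the log2 scale for Cyp2c29, −4.27 for Cyp2c55, −3.42 for Cyp3a16, −3.17 for Cyp1a1 and −2.56 for Cyp3a11. The matching differences of mutant 3 from the other mutants were −3.21, −0.78, −1.11, −1.62 and −0.77.

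Other measures also set control 3 and mutant 3 apart. These 2 libraries held Xist and the highest acinar sums, 1.13% and 1.27% of all FPKM against 0.361% or less in the others. Control 3 also lacked Rosa26Tomato. The summed level of 7 epithelial genes changed little, from 3790 FPKM in control 3 to 4209 FPKM in control 2. Taken relative to those epithelial genes, the control 3 differences were still −5.35 for Cyp2c29, −4.12 for Cyp2c55, −3.26 for Cyp3a16, −3.02 for Cyp1a1 and −2.41 for Cyp3a11. Most of the 8 enterocyte markers were lower in control 3 than in the other controls, by unequal amounts. On the log2 scale the differences were −1.37 for Lct, −0.73 for Apoa4, −0.41 for Fabp2 and −0.35 for Alpi. They were −0.08 for Sis, −0.05 for Vil1, 0.05 for Fabp1 and 0.46 for Anpep. In mutant 3, against the other mutants, all but Anpep (0.55) were lower, from −1.09 for Apoa4 to −0.08 for Vil1. Their sum was 14719, 24499 and 15571 FPKM in controls and 20503, 25012 and 16742 FPKM in mutants. Lct, the brush border lactase, was lowest in control 3 of the 6 libraries at 53.5 FPKM, while Anpep, a brush border peptidase, was highest there at 922 FPKM. With only 2 such libraries, the parts of these measures in the spread cannot be told apart.

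No P450 gene passed the test of mutant against control. Of the 51 tested, 0 had an adjusted p under 0.05 in limma, as did 0.0% of all 15864 rows. The smallest adjusted p was 0.79 among P450 genes and 0.25 among all rows. At an unadjusted p under 0.05, 3 P450 genes were higher in mutants and 0 lower, where 1.49% of all rows were higher and 4.32% lower. Of the 51, 33 had a log2 fold change above 0, against 38.7% of all rows, and 18 below 0. The median log2 fold change was 0.11 for the P450 genes and −0.05 for all rows, and the members ranged from −0.45 for Cyp3a16 to 1.64 for Cyp3a57. Without control 3 and mutant 3, a choice made after seeing the data, the P450 median was −0.02, and 1 gene was higher (Cyp4b1) and 1 lower (Cyp3a16) at an unadjusted p under 0.05. The count of 3 fell to 1 without control 1 and to 1 without mutant 2, and rose to 5 with the replicate number as a block, again with none past an adjusted p of 0.05. The split of all rows at an unadjusted p under 0.05 rests on scaling: 237 higher and 685 lower as deposited, 495 and 414 after median log-ratio scaling, and 360 and 431 after quantile normalization.

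**Figure D4:**
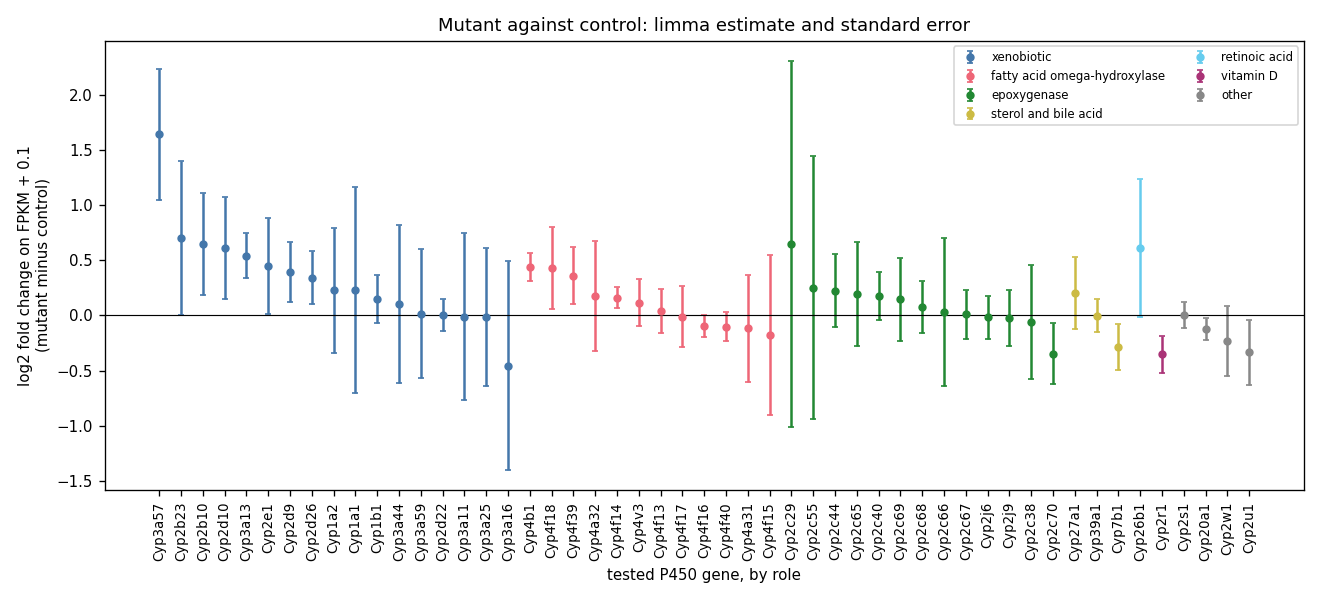
Log2 fold change of mutant over control with its standard error (limma, on FPKM + 0.1) for the 51 tested P450 genes, grouped and coloured by role. Cyp3a57 has the highest estimate, 1.64, and Cyp3a16 the lowest, −0.45, and Cyp2c29 and Cyp2c55 have among the widest bars.

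Cyp4b1 gave the smallest p of the P450 genes. Its mean was 34.3 ± 4.83 FPKM in controls and 46.3 ± 4.93 FPKM in mutants (SD, n = 3 each), with a log2 fold change of 0.44 (SE 0.13), an unadjusted limma p of 0.012 and an adjusted p of 0.79. The gene lies at chr4:115297333-115320310 (mm9). Its unadjusted p stayed below 0.05 in all 19 alternative settings, while its adjusted p ran from 0.61 to 0.99. In the authors' deposited table the fold was 1.35 with an unadjusted p of 0.00099 and an adjusted p of 1.

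Cyp3a13, given above for its controls, was at 356, 615 and 571 FPKM in mutants. Each mutant lay above each control, mutant 1 by a few FPKM only, and the mutant spread was the wider. Mutants exceeded controls by 0.54 on the log2 scale (SE 0.20), with an unadjusted limma p of 0.033 and an adjusted p of 0.79. In the authors' deposited table its fold was 1.54 with an unadjusted p of 0.016 and an adjusted p of 1. With 1 library left out the log2 fold change ran from 0.39 without mutant 2 to 0.79 without mutant 1. Its unadjusted limma p was above 0.05, between 0.061 and 0.10, when any library other than mutant 1 was left out. It was 0.057 after scaling to epithelial genes, and 0.15 without control 3 and mutant 3.

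Cyp3a57 was near the limit of measurement. Its level was 0.0257, 0.103 and 0.0366 FPKM in controls and 0.0866, 0.534 and 0.797 FPKM in mutants, which corresponds to about 0.2, 3 and 1 implied reads and 2, 19 and 24 implied reads. Mutant 1 lay inside the control range, and mutants 2 and 3 above it. Its fold change of 1.64 on the log2 scale (SE 0.59) had an unadjusted limma p of 0.028 and an adjusted p of 0.79, and it ran from 0.45 with a pseudocount of 1 to 2.61 with one of 0.01. The authors' deposited table gives it means of 7.98 and 11.9 normalised counts and an unadjusted p of 0.75.

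Of the 51 tested genes, Cyp4b1 and Cyp3a13 were the 2 whose mutants all lay above the controls, where 3.13% of all tested rows did so. Cyp2r1 was the 1 tested gene with all mutants below, where 9.92% of tested rows did so. The log2 fold change of Cyp2r1 was −0.35 (SE 0.17), with an unadjusted limma p of 0.074. In the authors' deposited comparison, 80 of the 88 genes have a p. None of them had an adjusted p under 0.05, against 0.0378% of that table's rows, and 2, Cyp4b1 and Cyp3a13, had an unadjusted p under 0.05, against 1.61%.

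**Figure D5:**
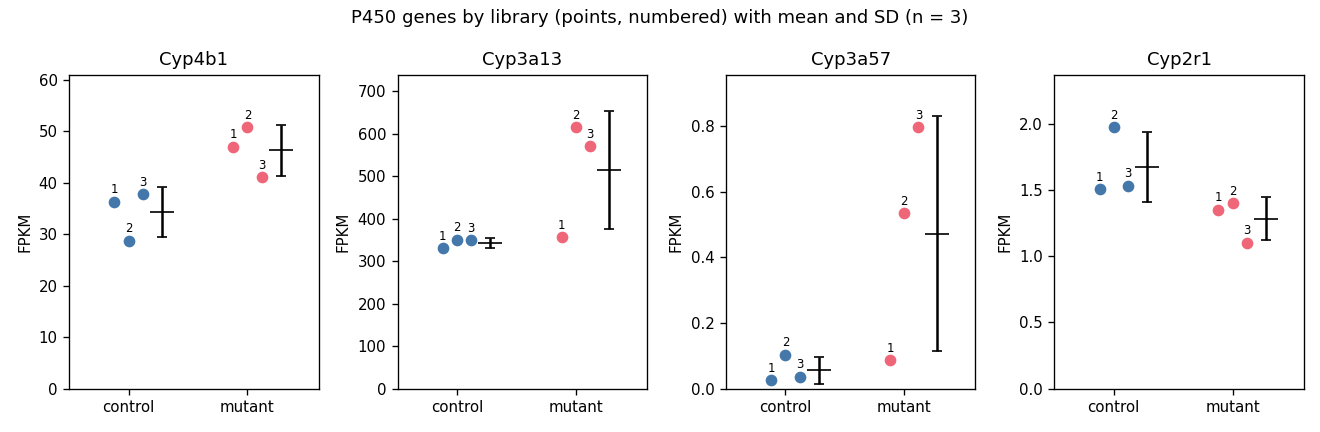
FPKM of Cyp4b1, Cyp3a13, Cyp3a57 and Cyp2r1 in each library (numbered points), with group mean and SD (n = 3 each), axes starting at 0. Mutants lie above controls for Cyp4b1 and Cyp3a13, overlap with them for Cyp3a57 and lie below them for Cyp2r1.

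Log2 fold changes within the larger roles went in both directions, with standard errors of up to 1.66, for Cyp2c29. The xenobiotic enzymes had 14 of 17 tested genes with a log2 fold change above 0 and a median of 0.23, the epoxygenases 9 of 13 with a median of 0.08, and the omega-hydroxylases 7 of 12 with a median of 0.08. Over all tested rows 38.7% were above 0. All 4 tested Cyp2d genes were above 0, with a median of 0.37, but Cyp2d22 was at 0.0027. Cyp2d9 and Cyp2d10 had control means of only 0.305 and 0.81 FPKM. Control 3 was the lowest control for each of the 4, and without control 3 the median of all tested P450 genes was −0.08. The 3 tested sterol and bile acid enzymes had a median of −0.0025. Clustered genes share sequence and libraries, so these counts are not independent observations. The 5 smooth muscle markers had lower values in mutants, each at an unadjusted limma p under 0.05 and an adjusted p of 0.79, with sums of 511, 600 and 720 FPKM in controls and 439, 366 and 488 FPKM in mutants. The 7 epithelial markers had a median log2 fold change of 0.01. The part of tissue makeup in the P450 values was not tested.

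The genes that serve or control P450 enzymes were tested beside them. The 28 listed genes were 7 electron donors, 4 haem supply genes, 14 regulators and 3 P450s outside the symbol rule. All were above the filter, and 0 had an unadjusted limma p under 0.05, against 5.81% of all rows. The most abundant were Cyb5, which encodes cytochrome b5, at 452 ± 86.7 FPKM in controls and 487 ± 36.5 in mutants, Cyb5r3, its reductase, at 341 ± 27.3 and 348 ± 39.5, and Cyb5b, the mitochondrial outer membrane form, at 267 ± 31.5 and 289 ± 42.9 (SD, n = 3 each). Por, the electron donor of all microsomal P450s, was at 95.4, 124 and 98.5 FPKM in controls and 101.4, 136 and 89.3 FPKM in mutants, without a drop in control 3 like that of its partners Cyp2c29 or Cyp3a11. Among the receptors, Nr1i2 had 51.8 ± 3.90 FPKM in controls and 56.4 ± 7.59 in mutants. Nr1i3 had 28.4 ± 0.404 and 27.7 ± 4.64 FPKM, and Ahr had 10.03 ± 0.994 and 8.56 ± 1.48 FPKM. Of the P450s outside the symbol rule, Cyp51, the lanosterol demethylase of cholesterol synthesis, was at 41.5, 29.9 and 16.4 FPKM in controls and 55.5, 24.9 and 15.2 FPKM in mutants, lowest in the libraries numbered 3 of each group.

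Sequence similarity limits how well single P450 genes can be told apart. On annotated transcripts of mm9, 87 of the 88 genes had a sequence, 65 had a P450 relative aligned over at least 1000 bases, 28 of them at 90% identity or more and 15 at 95% or more. Cyp2c68 and Cyp2c40 shared 98.0% of bases, Cyp3a25 and Cyp3a59 97.0%, Cyp2c65 and Cyp2c66 96.0%, and Cyp3a57 and Cyp3a59 94.5%. Reads of such pairs can be assigned to either copy, so their separate values are uncertain. Cyp3a13 and its closest relative shared 77.2%. Among the transcripts of Cyp4f14, NM_001204334 was at 149, 105 and 17.4 FPKM in mutants 1, 2 and 3 and NM_001204333 at 15.7, 31.4 and 138 FPKM. These transcripts are 2034 and 2037 bases long, and the gene's sum in mutant 3 was 343 FPKM. Whether this reflects transcript use or read assignment was not tested.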

How the data were processed

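RNA was sequenced from duodenum of 3 control and 3 mutant mice, grouped by the genotype labels. The submitters' processing notes name mm9 as the build and list DESeq, Cufflinks, TopHat and CASAVA 1.8.2. Not given in the sources used here: other versions and the read counter. The authors' deposited tables hold, per the file headers, FPKM with a confidence interval for genes and for RefSeq transcripts. The deposited transcript tables also hold coverage, which was not used here beyond a check of its unit. A deposited comparison table holds group means as size-factor normalised counts (a signal), the fold (a ratio, also as log2) and p-values. The members and gene lists were chosen with earlier results of these data known.

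The main test was limma 3.58.1 (R 4.3.3), two-sided, with a variance trend, applied to log2(FPKM + 0.1) of rows whose mean was at least 0.1 FPKM (15864 of 23699), with Benjamini-Hochberg adjustment over all of them and a threshold of 0.05. On the log2 scale with a pseudocount the change of low genes is understated. Since FPKM values are not counts, read depth was estimated from the intervals, whose upper bound was taken as 2 standard errors above the value; 87.8% to 88.2% of the implied reads of low genes with 1 transcript were within 0.05 of a whole number. The test was checked on simulated data. Replicate numbers were shared between groups, and an alternative fit treated them as pairs. The deviations of same-numbered libraries from their group means, over all tested rows, correlated at 0.11, 0.21 and 0.39. Control 1 correlated more with mutant 2, at 0.13, than with mutant 1, and the 0.39 joins control 3 and mutant 3, the Xist-high libraries. The labels state no pairing, so the pairs are an assumption of that fit. The P450 genes named were the 15 highest in controls, the highest of each role, those at an unadjusted p under 0.05 and the 5 of largest spread, and for partners and regulators the 3 highest. Promoters were searched for motifs as plain letters on both strands. The 19 alternative settings covered pseudocounts, filters, scaling, variance models, the replicate block, each library left out, summed transcript FPKM and, added after seeing the data, implied reads in voom and a fit without control 3 and mutant 3. Gene positions are 1-based.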

Additional observations from a re-analysis of the deposited data

How the results depend on the processing

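In all 19 alternatives 0 P450 genes had an adjusted limma p under 0.05. The number of P450 genes at an unadjusted p under 0.05 was 5 without the filter on low values, 5 with the replicate block, where Cyp2d26 and Cyp2b10 joined Cyp4b1, Cyp3a13 and Cyp3a57, and 1 to 4 with 1 library left out. The count over all genes at an adjusted p under 0.05 was 2 with the replicate block, 1 without the Xist-high libraries (control 3 and mutant 3, chosen after seeing the data) and 0 to 3 with 1 library left out (2 without control 2, 3 without mutant 1 and 2 without mutant 2). The cause of these changes was not tested. The P450 median log2 fold change lay between −0.09 and 0.24 with 1 library left out, below 0 without control 3 or without mutant 2, and was 0.15 after median log-ratio scaling.

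Of 417 alternatives for the 22 named genes with a fold change, 370 kept their direction and side of the threshold and 47, in 13 genes, turned their direction; none of the 13 had an adjusted p under 0.05. With 1 library left out the log2 fold change ran from −0.83 to 0.99 for Cyp1a1, −1.19 to 1.72 for Cyp2c29, −1.17 to 1.13 for Cyp2c55, −0.35 to 0.47 for Cyp2c65, −0.76 to 0.47 for Cyp2c66, −0.14 to 0.26 for Cyp2c68, −0.15 to 0.18 for Cyp2j6, −0.086 to 0.094 for Cyp2s1, −0.86 to 0.73 for Cyp3a11, −1.59 to 0.15 for Cyp3a16, −0.66 to 0.53 for Cyp3a25, −0.058 to 0.30 for Cyp4v3 and −0.12 to 0.53 for Cyp27a1. Without the Xist-high libraries it was −0.29 for Cyp1a1, −0.12 for Cyp2c29, −0.91 for Cyp2c55, −0.24 for Cyp2c65, −0.50 for Cyp2c66, −0.14 for Cyp2c68, 0.051 for Cyp2j6 and −0.076 for Cyp2s1. Library quality weights gave −0.20 for Cyp2c55, −0.19 for Cyp2c66 and −0.032 for Cyp2s1. Quantile normalization gave −0.018 for Cyp2c66 and −0.0026 for Cyp2s1, median log-ratio scaling 0.029 for Cyp2j6, 0.037 for Cyp3a11 and 0.036 for Cyp3a25, and scaling to epithelial genes −0.012 for Cyp2s1. Depth limits the lowest genes, such as Cyp3a57 with at most 24 implied reads in a library.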

Other observations

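For some P450 genes the reads implied by the FPKM intervals and the authors' counts were far apart. Cyp4f14, the row with a failed-estimate status, had 616, 731 and 725 implied reads in controls. The authors' deposited table gives it a control mean of 10990 normalised counts. The implied reads of Cyp4f14 were low for its control mean of 298 FPKM. Cyp2c65, with a control mean of 221 FPKM, had 7001, 10393 and 3164 implied reads in controls. Implied reads rest on the width of the interval, so for the Cyp4f14 row they cannot be taken as a count of reads. Its gap is therefore not shown to be a difference in counts. The closest relative of Cyp4f14, Cyp4f16, is 84.0% identical. Cyp2c40 had 186, 205 and 141 implied reads in controls, while the authors' deposited table gives it a control mean of 0.771 normalised counts. Cyp3a44 had 94.4, 231 and 26.1 implied reads in controls against a control mean of 8.28 normalised counts in the authors' deposited table, and Cyp3a57 had 0.2, 3 and 1 against 7.98. Cyp2c40 is 98.0% identical to Cyp2c68, and Cyp3a44 is 94.96% identical to Cyp3a41a. How each program treated reads that match several genes was not tested. These genes were picked for their gap.

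Some P450 genes were not lowest in control 3. Cyp27a1 was highest in control 3 among controls and in mutant 3 among mutants, by 0.59 and 0.95 on the log2 scale over the others of its group. Cyp2u1, a fatty acid hydroxylase, was at 1.10, 1.65 and 1.64 FPKM in controls and 1.15, 1.64 and 0.734 FPKM in mutants, so mutant 3 was lowest and control 3 was not. Cyp27a1 and Cyp2u1 were picked after their values were seen.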
